A study of Mus musculus with 43 samples.

Results

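The data described here are the transcript levels of 8 mouse genes of 3 small, copied families: the homeobox genes Obox6, Obox3 and Obox5, the homeobox genes Cphx1 and Cphx3, and the tripartite-motif genes Trim43a, Trim43b and Trim43c. They were chosen by name, 8 of the 46683 gene symbols in the full expression tables, because some of them were higher in Ddx18 knockout than in wild-type embryos of this series, so their levels in those embryos are given as a description and carry no test. The embryo samples were whole embryos of the C57/B6 strain taken at E3.5, around the blastocyst stage, from Ddx18 heterozygous mothers, with 2 wild-type and 2 Ddx18 knockout libraries, and nothing given in the labels says how many embryos a library pooled. All 33 other RNA-seq libraries came from embryonic stem cells (ESCs) of the CJ9 line on a 129S1/SVImJ background, grown in serum with LIF. Untreated ESCs gave 2 control and 2 Ddx18 knockdown libraries, and the same design was used in EZH2 KO and in p53 KO ESCs, each with 2 against 2 libraries. ActD (actinomycin D, which at low doses blocks RNA polymerase I) was given at 0 ng/ml (3 libraries), 5 ng/ml and 10 ng/ml (2 libraries each) to ESCs and at 0 and 10 ng/ml (2 libraries each) to p53 KO ESCs. CX-5461, which blocks transcription by RNA polymerase I, was given at 0 and 1 µM (3 libraries each), and CHX (cycloheximide, an inhibitor of translation) at 0 and 10 µM (2 libraries each). Nothing in the labels says that libraries of a group came from separate cultures or litters, or that a knockout line is more than 1 clone, so p-values measure the spread between libraries, which may be technical.

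DDX18 belongs to the DEAD-box helicases and sits in the nucleolus, where ribosomal RNA is made. Obox proteins are homeodomain proteins found in rodents, present in oocytes and in the first embryonic cleavages, and in the mouse they take part in starting transcription of the embryo's own genome. Cphx genes encode another homeodomain protein of the oocyte and early embryo. Trim43 genes encode RING-type TRIM proteins whose mouse transcripts are known from the 8-cell embryo and morula and decline in the blastocyst.

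How alike the copies of a family are matters for how their levels are read, and only the sequence before the start was compared here. Promoter windows from RefSeq on GRCm38.p6 were found for 5 of the 8 genes, and the 250 bases before the annotated start are printed 5′ to 3′ on the strand of the gene. Capitals mark the letters TATAA on either strand, the core of a TATA box, which 22.8% of 32851 promoter windows of that length hold. The pair of Cphx genes lies on chromosome 14 at chr14:25942294-25942543 (+) and chr14:26221654-26221903 (+), Obox3 and Obox5 on chromosome 7 at chr7:15639778-15640027 (-) and chr7:15750120-15750369 (+), and Trim43a on chromosome 9 at chr9:88580641-88580890 (+).
Cphx1: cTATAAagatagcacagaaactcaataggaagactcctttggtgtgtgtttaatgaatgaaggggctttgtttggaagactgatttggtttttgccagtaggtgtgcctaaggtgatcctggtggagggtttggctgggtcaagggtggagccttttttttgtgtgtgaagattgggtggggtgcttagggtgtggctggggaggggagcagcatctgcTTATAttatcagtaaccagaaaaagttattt
Cphx3: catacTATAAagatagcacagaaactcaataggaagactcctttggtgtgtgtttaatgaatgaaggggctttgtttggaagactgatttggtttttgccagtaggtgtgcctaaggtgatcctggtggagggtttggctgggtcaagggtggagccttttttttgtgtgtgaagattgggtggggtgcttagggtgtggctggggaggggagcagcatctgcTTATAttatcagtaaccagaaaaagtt
Obox3: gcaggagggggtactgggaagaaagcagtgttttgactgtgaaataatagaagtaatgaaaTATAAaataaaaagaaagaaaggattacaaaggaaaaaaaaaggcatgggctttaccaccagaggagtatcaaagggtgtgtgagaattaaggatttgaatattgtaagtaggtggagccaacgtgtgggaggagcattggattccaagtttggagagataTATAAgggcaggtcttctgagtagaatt
Obox5: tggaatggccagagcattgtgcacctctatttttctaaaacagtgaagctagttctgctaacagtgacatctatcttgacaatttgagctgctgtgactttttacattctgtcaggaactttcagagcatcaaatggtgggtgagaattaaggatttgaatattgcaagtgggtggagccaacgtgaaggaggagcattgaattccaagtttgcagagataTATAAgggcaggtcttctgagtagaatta
Trim43a: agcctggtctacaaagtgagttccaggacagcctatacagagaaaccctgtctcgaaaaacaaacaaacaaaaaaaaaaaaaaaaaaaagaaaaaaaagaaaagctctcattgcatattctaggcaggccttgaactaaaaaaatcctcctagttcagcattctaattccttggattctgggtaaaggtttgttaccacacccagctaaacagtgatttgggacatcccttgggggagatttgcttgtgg
An unbroken run of 246 bases is the same in the windows of Cphx1 and Cphx3, and Cphx3 matches the third copy, Cphx2, over all 250 bases. The entry for Cphx3 in the tables also covers a stretch of chromosome 14, from 26082296 to 26235744, that takes in Cphx2. Obox3 and Obox5 share a run of 35 bases next to the start. Reads of the Cphx copies may be split between them or counted for each, though the transcripts themselves were not compared. In the EZH2 KO and p53 KO knockdown tables the ratio of Cphx1 to Cphx3 was 1.003 in all libraries, and their pair of values there counts as 1 measurement. The summed level of Cphx1, Cphx2 and Cphx3 is given beside the single copies for that reason, and the split among the copies is uncertain. In the same EZH2 KO and p53 KO knockdown tables the ratio of Cphx2 to Cphx3 was 0.962 in all libraries. The sum there repeats 1 measurement. For Cphx the marked letters nearest the start began 31 (Cphx1) and 27 (Cphx3) bases before it and read TTATA, which is TATAA on the opposite strand. For Obox3 and Obox5 they read TATAA on the strand of the gene and began 28 and 29 bases before the start. None were in the Trim43a window.

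Levels are FPKM as deposited by the authors, a value scaled for transcript length and sequencing depth. Mapped reads were given for 19 of the ESC libraries and ranged from 7112852 to 22983179, so a level well under 1 FPKM rests on few reads. Depth was not given for the embryo libraries, where the steps between the lowest values gave depths within a factor of 1.396 of each other. Ddx18 itself checked the labels. In embryos it was 11.04 and 21.99 FPKM in wild type against 2.97 and 2.86 FPKM in knockout (log2 difference -2.09 ± 0.42 SE, limma adjusted p = 0.0449), and in knockdown ESCs it fell 9.41-fold, in EZH2 KO ESCs 5.22-fold and in p53 KO ESCs 12.5-fold (limma adjusted p = 2.6e-06, 0.00183 and 0.0481). Ezh2 was at most 4.12 FPKM in the EZH2 KO libraries and 6.45 to 56.3 FPKM in the controls of ESCs that carry neither knockout. The lowest of these were the CX-5461 controls, and ESCs treated with CX-5461 were at 2.78 to 3.51 FPKM. Trp53 transcript gave no clear check: it was 91.5 to 126 FPKM in the p53 KO controls and 175 to 259 FPKM in treated or knockdown p53 KO libraries, against 40.7 to 393 FPKM in the ESC controls of the other tables. Cdkn1a, a target gene of p53, was 5.24 to 6.44 FPKM in the p53 KO controls and 8.05 to 35.1 FPKM in the controls of ESCs that carry neither knockout. The p53 KO ActD libraries are p53 KO by their titles, while their source name gives CJ9 cells, so each statement on p53 KO ESCs with ActD rests on the titles.

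In the wild-type embryos the 8 genes ranged from Trim43a, above 184 FPKM in both libraries, to Obox3 and Obox5, listed at 0. Of the 8, 6 passed the filter for low values (at least 1 FPKM in 2 libraries), and these 6 were higher in both knockout libraries than in both wild-type libraries. Over all 8687 genes that passed, 14.3% had both knockout libraries above both wild-type ones and 5.18% were called changed by limma. Nothing is read from this share, because the genes were chosen from this contrast.

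Obox6, the most abundant of the 3 Obox genes, stood at 14.05 and 3.91 FPKM in the wild-type libraries and at 64.6 and 77.5 FPKM in the knockout libraries. The knockout libraries were close to each other and the wild-type pair was not, with replicate 1 3.59-fold above replicate 2. On the means the knockout level was 7.91-fold higher (8.98 ± 7.17 against 71.1 ± 9.12 FPKM, SD, n = 2 each), a log2 difference of 3.06 on the log2(FPKM + 1) scale that is used for all log2 values here.

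Obox3 was listed at 0 in all 4 embryo libraries. Obox5 was listed at 0 in 3 of them and at 0.163 FPKM in knockout replicate 1. Of the 3 homeobox genes on chromosome 7, then, Obox6 alone was detected above 1 FPKM in these embryos.

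Cphx1 was at 4.65 and 1.80 FPKM in wild type and at 35.02 and 28.9 FPKM in knockout embryos. Cphx3 was at 4.19 and 1.96 FPKM against 36.8 and 30.1 FPKM. The copies moved side by side, with ratios of Cphx1 to Cphx3 between 0.915 and 1.11 in the 4 libraries. Summed with Cphx2, the 3 copies went from 9.90 ± 4.505 to 94.6 ± 12.1 FPKM (SD, n = 2 each), 9.56-fold higher, and neither knockout library overlapped the wild-type values of 13.1 and 6.72 FPKM.

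Among the Trim43 genes the most abundant one differed least. Trim43a was at 260 and 184 FPKM in wild type and at 411 and 357 FPKM in knockout embryos, a 1.73-fold difference on the means. Trim43b, by contrast, was at 46.2 and 9.54 FPKM in wild type and at 201 and 193 FPKM in knockout, 7.05-fold higher. Trim43c was at 37.02 and 21.99 FPKM against 59.6 and 56.0 FPKM, 1.96-fold higher. The order of abundance in wild type, Trim43a above the other two, was the same in knockout embryos, while Trim43b and Trim43c overlapped in wild type and were apart in knockout.

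**Figure D1:**
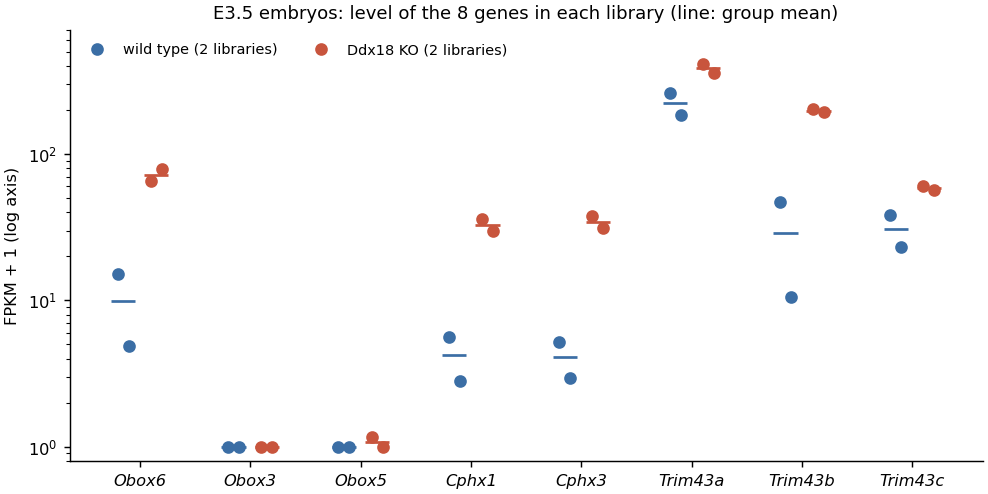
Level of each of the 8 genes in the 2 wild-type (blue) and 2 Ddx18 knockout (red) E3.5 embryo libraries, as FPKM + 1 on a log axis, with the group mean as a line. Obox6, Cphx1, Cphx3 and Trim43b lie 7.05-fold to 10.9-fold higher in knockout on the means, Trim43a and Trim43c 1.73-fold and 1.96-fold, and Obox3 and Obox5 sit at or near 0.

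Ranked from the highest log2 difference down, Trim43b was number 11, Cphx3 number 12, Obox6 number 15 and Cphx1 number 17 of 8687 genes, whereas Trim43c was number 408 and Trim43a number 587. The median log2 difference over all genes that passed the filter was -0.31, and after the libraries were rescaled by their median ratio it was -0.02. On that rescaled scale the differences were 3.41 for Obox6, 3.37 for Cphx1, 3.45 for Cphx3, 3.51 for Trim43b, 1.18 for Trim43a and 1.36 for Trim43c.

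The wild-type embryos were not alike for these genes. Replicate 1 was above replicate 2 for each of the 6 detected genes, by 1.41-fold (Trim43a) to 4.85-fold (Trim43b). For Trim43b 0.656% and for Obox6 1.74% of all genes had a larger log2 difference between the wild-type libraries in that direction. Without wild-type replicate 2 the median log2 difference over the 8 genes was 1.35, and with all libraries it was 2.02.

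Other gene groups show what else differed in these libraries. Of 29 genes known from the 2-cell stage, 5 passed the filter, all 5 were above wild type in both knockout libraries and 0 were called by limma (3 at an unadjusted p under 0.05). Of all genes 14.3% were above in both, 5.18% were called and 26.2% had that unadjusted p. Some of the 5 passed the filter only through knockout libraries, which favours genes that rose, so these counts are descriptions. The summed level of the list was low, at 5.05 to 12.01 FPKM in wild type and 29.8 to 31.5 FPKM in knockout, and 9 genes of the list, among them Zscan4c and Zfp352, were listed at 0. Of the other Obox, Cphx, Dux and related homeobox genes 4 passed. Cphx2 among them (3.60 to 29.2 FPKM) may share reads with Cphx1 and Cphx3 and is given no test, and 0 of the other 3 were called (0 at an unadjusted p under 0.05). Crxos, a homeobox gene on the same chromosome as the Obox genes and the most abundant of that list, was at 318 FPKM in wild type and 233 FPKM in knockout (limma adjusted p = 0.236), and Duxf3, the transcription factor DUX, was at 0. Of 12 other genes of the 4-cell embryo to morula and of 4 oocyte and maternal genes that passed, 0 were called (3 and 1 at an unadjusted p under 0.05 by limma). Both counts are near the 26.2% of all genes at that unadjusted p. The summed oocyte and maternal list, carried by Dppa3 and Khdc3, was 905 to 1016 FPKM in wild type and 965 to 1065 FPKM in knockout.

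Markers of the blastocyst's cell types differed beside the 8 genes. Summed trophectoderm markers were 462 to 593 FPKM in wild type and 83.1 to 101 FPKM in knockout, with 5 of 11 tested called lower by limma and 0 higher, among them the keratins Krt8 and Krt18. Summed epiblast and pluripotency markers were 2550 to 3380 against 1292 to 2078 FPKM, with 1 of 13 called lower, Nanog (128 to 2.32 FPKM, limma adjusted p = 0.0234). That sum was carried by Dppa5a, at 2214 and 3070 FPKM in wild type and 1979 and 1204 FPKM in knockout. The list was mixed: of the 13, 6 were below and 2 above wild type in both knockout libraries. Pou5f1 overlapped, at 18.5 and 10.9 against 16.5 and 6.06 FPKM. Summed primitive endoderm markers were 51.7 to 64.4 against 25.2 to 30.1 FPKM, with 0 of 5 called (2 at an unadjusted p under 0.05) and Sox17 and Foxa2 at 0. Of all 8687 genes 4.55% were called lower, 42.4% had both knockout libraries below both wild-type ones and 26.2% had an unadjusted p under 0.05 by limma. The median log2 difference of all genes was -0.31, so a lower sum is in part shared with the whole table. Krt8, Krt18 and Nanog were picked with their values in view, and without any 1 of the 4 embryo libraries limma called 0 genes of this table. Cumulus cell markers were at 0 (10 of 10), fibroblast markers summed to at most 0.213 FPKM, and of 8 blood cell markers 7 were at 0 and Cd68 was at 0.312 and 0.362 FPKM in wild type and at 0 and 2.74 FPKM in knockout. The part that the cell types or the stage reached by the embryos have in the levels of the 8 genes was not tested, and in whole embryos fewer cells of a type and less RNA per cell cannot be told apart.

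**Figure D2:**
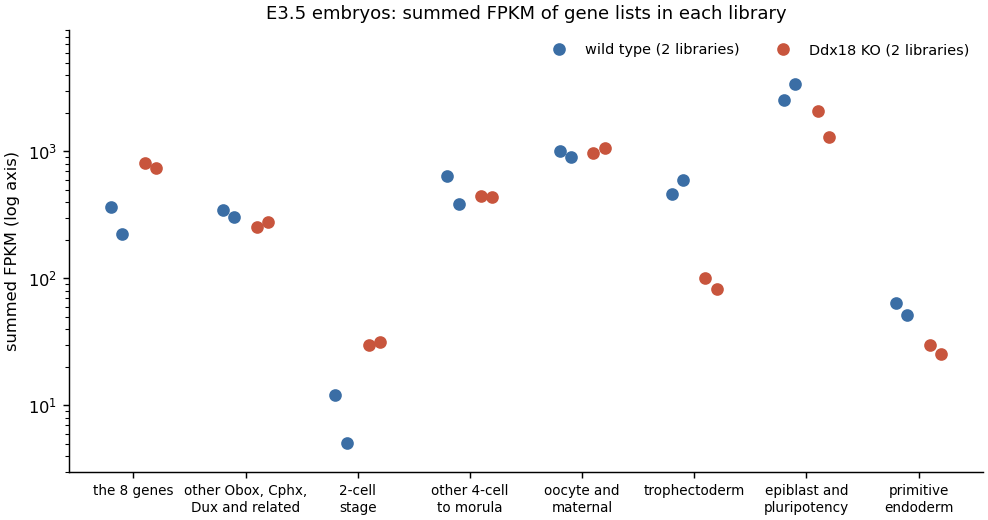
Summed FPKM (log axis) of the 8 genes, of 4 lists of stage genes and of 3 lists of cell type markers in each E3.5 library. The 8 genes sum to 223 and 366 FPKM in wild type (blue) and 742 and 807 FPKM in Ddx18 knockout (red), while the trophectoderm, epiblast and primitive endoderm sums are lower in both knockout libraries.

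In ESCs the same genes were near the floor of the measurement, and none of the 6 genes detected in the embryos reached its knockout embryo level in any ESC library. Trim43a, Trim43b and Trim43c had maxima of 1.16, 0.558 and 0.585 FPKM over 29 ESC libraries and were listed at 0 in 15, 15 and 17 of them. Obox3 was listed at 0 in 21 and Obox5 in 27 of the 29 libraries. Obox6 reached 1.26 FPKM at most and was at 0 in 11 of 33 libraries. The Cphx genes were the ones detected in most ESC libraries: Cphx1 reached 2.87 FPKM and was at or above 1 FPKM in 13 of 33 libraries, and Cphx3 reached 3.19 FPKM and was at or above 1 FPKM in 14 of 33. For Obox6 and the 3 Trim43 genes both wild-type embryo libraries lay above every ESC library, while for Cphx1 and Cphx3 the lower wild-type embryo value (1.80 and 1.96 FPKM) lay within the ESC range. No label or header says whether the tables share a scaling, so levels were tested only within a table, and between tables only the differences found within each.

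Knockdown of Ddx18 in ESCs went with lower Cphx1 and Cphx3. The knockdown table lists 4769 symbols, a selected part of the genes, and holds 3 of the 8: Obox6, Cphx1 and Cphx3. Cphx1 was at 2.35 and 2.87 FPKM in controls and at 0.786 and 0.582 FPKM after knockdown, with no overlap. It fell by 1.10 ± 0.11 (SE) on the log2 scale (limma adjusted p = 8.4e-05, lower in 2 of 2 libraries). Cphx3 was at 3.19 and 3.10 FPKM against 1.41 and 1.04 FPKM, and fell by 0.90 ± 0.10 (limma adjusted p = 0.000155). These are 2 of 2 members tested, read against 97.9% of the 4695 tested genes of that table called in either direction, 42.6% called lower and 43.7% with both knockdown libraries below both controls, since the table holds genes that differ. Cphx1 passed the filter through its controls alone, which favours a fall, and the copies may share reads. Obox6 was below the filter, with 0.952 and 1.26 FPKM in controls and 0.198 and 0.210 FPKM after knockdown. With no filter its log2 difference of -0.80 was called (limma adjusted p = 0.00021).

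In EZH2 KO ESCs, which lack the methyltransferase of PRC2, the complex that places repressive H3K27 methylation, Cphx1 was at 1.66 and 1.53 FPKM in controls and at 0.868 and 0.722 FPKM after Ddx18 knockdown. The groups did not overlap, but the log2 difference of -0.53 ± 0.24 (SE) did not pass (limma adjusted p = 0.215), and neither did that of the summed copies (-0.78 ± 0.20, adjusted p = 0.0634, and 0.0479 with rescaled libraries). The sum repeats 1 measurement here and fell 2.01-fold, as Cphx1 did. Its larger log2 difference and smaller p-value go with the 1 added to a higher level, so the sum adds no evidence. Here too Cphx1 and Cphx3 are 1 measurement, which was not called by limma (nor at an unadjusted p under 0.05), against 8.49% of 11773 genes called and 27.4% at that unadjusted p, and 20.7% of genes had both knockdown libraries below both controls. Obox6, Obox3, Obox5 and Trim43c were at 0 in all 4 libraries.

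In p53 KO ESCs, which lack the transcription factor p53, Cphx1 was at 1.49 and 2.36 FPKM in controls and at 0.659 and 0.451 FPKM after Ddx18 knockdown. The log2 difference was -0.90 ± 0.31 (SE, limma adjusted p = 0.120), and for the summed copies -1.32 ± 0.32 (adjusted p = 0.0652). The sum repeats the same measurement in this table, with a 3.47-fold fall as for Cphx1, and adds no evidence. Here Cphx1 and Cphx3, which are 1 measurement in this table, were not called by limma (unadjusted p under 0.05), against 3.27% of 11636 genes called and 31.2% at that unadjusted p, and 11.8% of genes had both knockdown libraries below both controls. Obox6, Obox3, Obox5 and Trim43b were at 0 in all 4 libraries.

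The knockdown effects on the summed Cphx copies were compared between the genotypes. The difference between ESCs and EZH2 KO ESCs was -0.56 ± 0.18 (SE) on the log2 scale (limma adjusted p = 0.0678), that between ESCs and p53 KO ESCs -0.01 ± 0.32 (adjusted p = 0.986), and that between EZH2 KO and p53 KO ESCs 0.55 ± 0.36 (adjusted p = 0.408). None of the 3 passed, which does not show that the effects were alike. Because the sum repeats 1 measurement in the EZH2 KO and p53 KO tables, its differences depend on the 1 added before the log. For Cphx1 alone the differences, in the same order, were -0.57, -0.20 and 0.36 (limma adjusted p = 0.0659, 0.590 and 0.585). Obox6 could not fall in the EZH2 KO and p53 KO knockdown tables, where it was listed at 0 in all libraries, and was not compared. The knockdown differences of the Cphx copies were negative in all 3 genotypes and those of the knockout embryos positive, a contrast between embryos and ESCs that was not tested.

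**Figure D3:**
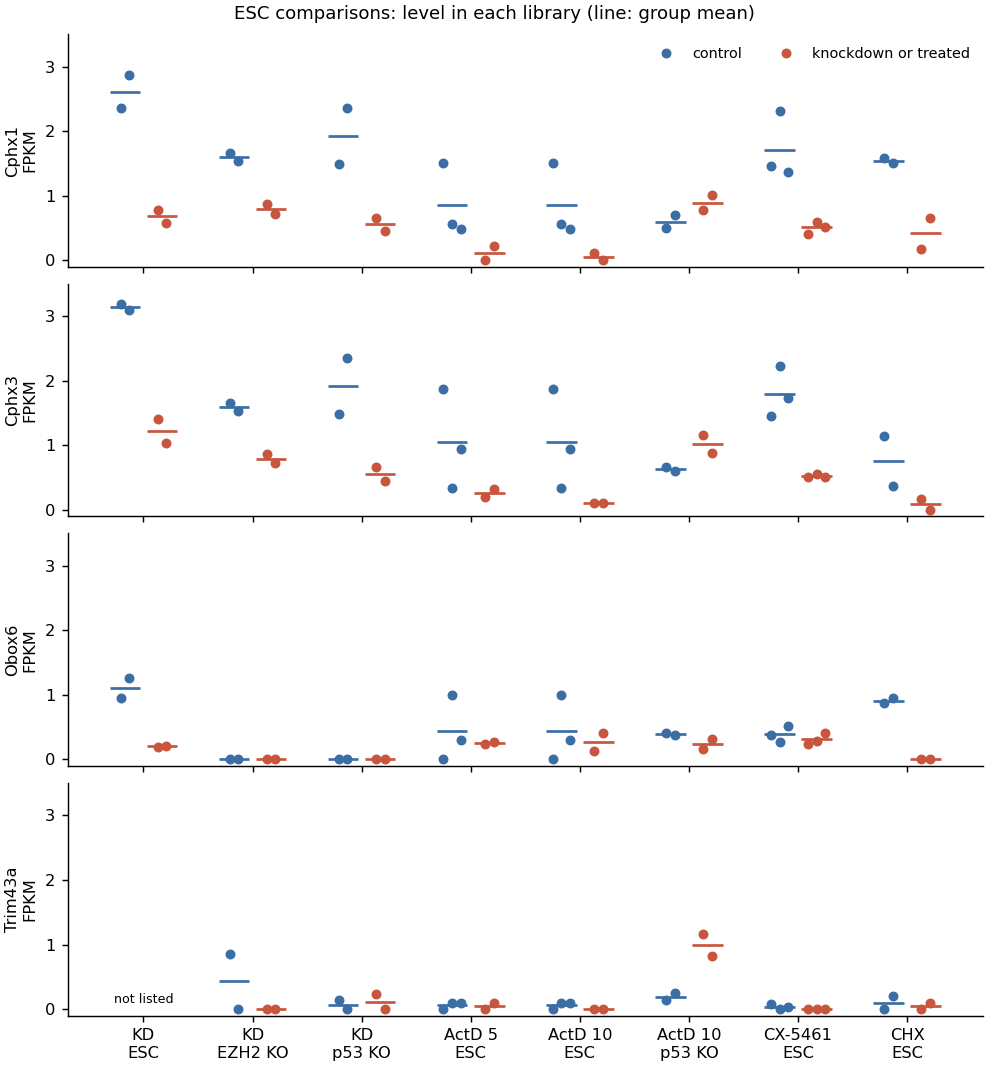
FPKM of Cphx1, Cphx3, Obox6 and Trim43a in every ESC library, with controls in blue, knockdown or treated libraries in red and group means as lines. The 3 ActD controls are drawn for both ActD doses. Cphx1 and Cphx3 lie lower in all treated groups except ActD in p53 KO ESCs, and Trim43a exceeds 1 FPKM in 1 library, of that group.

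Both drugs that act on RNA polymerase I went with lower Cphx levels in ESCs that are not p53 KO. With CX-5461, Cphx1 was at 1.46, 2.31 and 1.37 FPKM in controls and at 0.411, 0.598 and 0.516 FPKM in treated cells, and it fell by 0.83 ± 0.15 (SE) on the log2 scale (limma adjusted p = 0.00194, lower in 3 of 3 libraries). Cphx3 was at 1.46, 2.22 and 1.73 FPKM against 0.501, 0.550 and 0.514 FPKM, and fell by 0.87 ± 0.12 (limma adjusted p = 0.000538). The treated libraries lay close together and below every control, as for 31.6% of genes. This was the comparison with most libraries, 3 against 3, and 2 of 2 members tested were called, against 61.8% of 12966 genes called and 28.9% called lower. Cphx1 and Cphx3 passed the filter through their controls alone, which favours a fall, and the copies may share reads. Obox6 overlapped between the groups, with 0.267 to 0.521 FPKM in controls and 0.233 to 0.418 FPKM in treated cells.

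At 5 and at 10 ng/ml ActD, 0 of the 8 genes passed the filter, so none was tested or called, against 49.0% and 56.4% of 14522 genes. With no filter 0 were called at either dose. Cphx1 was at 1.51, 0.565 and 0.476 FPKM in the controls that both doses share, at 0 and 0.218 FPKM with 5 ng/ml and at 0.106 and 0 FPKM with 10 ng/ml. Cphx3 was at 1.88, 0.338 and 0.950 FPKM in the controls, at 0.194 and 0.326 FPKM with 5 ng/ml and at 0.106 FPKM in both libraries with 10 ng/ml. All treated libraries lay below all controls, as for 23.5% of genes at 5 ng/ml and 26.5% at 10 ng/ml, and control library 1 was well above the other two. The summed copies passed the filter through the controls alone, which favours a fall. They were at 4.65, 1.23 and 1.88 FPKM in controls, 0.381 and 0.545 FPKM with 5 ng/ml and 0.416 and 0.209 FPKM with 10 ng/ml. They fell by 1.18 ± 0.39 (SE) and 1.34 ± 0.39 on the log2 scale (limma adjusted p = 0.0443 and 0.0252). Without control library 1 the differences were smaller, -0.80 and -0.95, and still passed. With no filter neither call held (limma adjusted p = 0.0868 and 0.0502), and both ended without any 1 of the 4 treated libraries (adjusted p = 0.0966 to 0.214 at 5 ng/ml and 0.0626 to 0.155 at 10 ng/ml). At 5 ng/ml the call also ended without control library 3 (adjusted p = 0.0659).

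In p53 KO ESCs the same 10 ng/ml of ActD went the other way for the Cphx copies. Cphx1 was at 0.495 and 0.702 FPKM in controls and at 0.773 and 1.01 FPKM in treated cells, and Cphx3 at 0.658 and 0.600 against 1.16 and 0.884 FPKM. Both treated libraries lay above both controls for each gene, as for 61.0% of genes, but the pair was below the filter and overlapped once the libraries were rescaled. Summed, the copies were at 1.31 and 1.69 FPKM in controls and 3.16 and 3.60 FPKM in treated cells, and they rose by 0.81 ± 0.18 (SE) on the log2 scale (limma adjusted p = 0.0230). The copy Cphx2 went from 0.272 to 1.47 FPKM, passed the filter through its treated libraries alone and was not called with no filter (limma adjusted p = 0.0650, and 0.0256 with the filter), and 32.7% of 13145 genes were called higher in this table. The median of all genes was 0.35 higher in treated cells, and after rescaling the sum was higher by 0.54 (limma adjusted p = 0.0788). Without any 1 of the 4 libraries the sum was not called (adjusted p = 0.0780 to 0.148). Trim43a showed its highest ESC levels here, 1.16 and 0.826 FPKM against 0.134 and 0.245 FPKM in controls, and Obox3 was at 0.178 and 0.676 FPKM against 0 in both controls. With no filter neither was called (limma adjusted p = 0.0691 and 0.207), and 0 of the 8 genes passed the filter, against 37% of genes called. Trim43b was lower, at 0.465 and 0.358 FPKM in controls and 0.273 and 0 FPKM in treated cells.

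The response of the summed Cphx copies to 10 ng/ml ActD differed between ESCs and p53 KO ESCs. The difference of the log2 differences was -2.15 ± 0.50 (SE, limma adjusted p = 0.00937), and it passed in all 14 alternatives run, with adjusted p between 0.000827 and 0.0462. For the single copies it was -1.02 ± 0.35 for Cphx1 (adjusted p = 0.0491, and 0.0702 with no filter) and -1.13 ± 0.41 for Cphx3 (adjusted p = 0.0579). The unadjusted limma p for Cphx1 was 0.0192, and so small an adjustment arises only where a large share of all genes differ. The difference is therefore not read as particular to the Cphx copies. The Cphx1 difference was not called without any 1 of the 4 treated ESC libraries or of the 4 p53 KO libraries (adjusted p = 0.0723 to 0.153). Ddx18 itself moved beside this: it fell 1.49-fold with 10 ng/ml ActD in ESCs (limma adjusted p = 0.00139) and was 1.12-fold higher in p53 KO ESCs (adjusted p = 0.149), a difference of -0.73 ± 0.11 on the log2 scale (adjusted p = 0.000824), and it also fell with CX-5461 (1.86-fold) and CHX (1.36-fold). The part of Ddx18 in the Cphx levels was not tested. The controls differed in level as well, with 1.23 to 4.65 FPKM for the sum in ESCs and 1.31 to 1.69 FPKM in p53 KO ESCs, in different tables.

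With CHX, Cphx1 was at 1.59 and 1.50 FPKM in controls and at 0.173 and 0.661 FPKM in treated cells, and it fell by 0.86 ± 0.23 (SE) on the log2 scale (limma adjusted p = 0.0299). It was the 1 member that passed the filter and was called, against 53% of 13257 genes called and 19.8% called lower, with 32.9% lower in both treated libraries. Cphx1 passed the filter through its controls alone, which favours a fall. The call was lost with no filter (adjusted p = 0.0661), with a pseudocount of 0.1 (0.0576) and without any of 3 of the 4 libraries (0.0851 to 0.176). The summed copies went from 3.39 and 3.43 FPKM to 1.35 and 0.766 FPKM and fell by 1.12 ± 0.20 (limma adjusted p = 0.00894). That call was lost without either control library or treated library 2 (adjusted p = 0.0581 to 0.0943). Obox6 was at 0.876 and 0.947 FPKM in controls and listed at 0 in both treated libraries, and it was called with no filter (limma adjusted p = 0.0117).

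**Figure D4:**
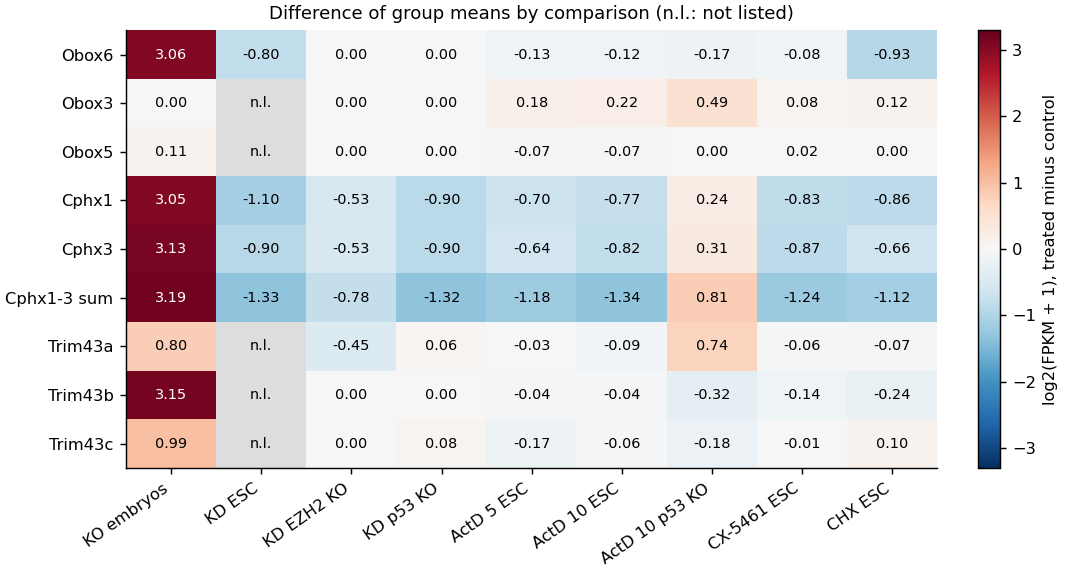
Difference of group means on the log2(FPKM + 1) scale for each gene and for the summed Cphx copies in the 9 comparisons, with red for higher and blue for lower than control, and grey where the gene is not listed. The embryo column holds differences of 3.05 to 3.15 for Obox6, Cphx1, Cphx3 and Trim43b, the Cphx entries are negative in 7 of the 8 ESC comparisons, and the Trim43 entries in ESCs stay near 0 apart from Trim43a.

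Genes of the 2-cell stage rose in knockdown and CX-5461-treated ESCs, in which Cphx1 and Cphx3 fell. Of that list 19 of 19 tested genes rose with CX-5461, 13 of 16 with 5 ng/ml and 15 of 16 with 10 ng/ml ActD and 10 of 10 in the knockdown table (limma), with 0 falling. Of all genes 32.9% were called higher with CX-5461, 32.9% and 36.4% with 5 and 10 ng/ml ActD and 55.2% in the knockdown table. The whole list summed to only 6.94 to 7.67 FPKM in the CX-5461 controls and 7.69 to 13.4 FPKM in the ActD controls. Genes so low in controls could pass the filter through treated libraries alone, which favours genes that rose, so these counts are descriptions. Zscan4c, a gene of the 2-cell stage, went from 1.03 to 16.98 FPKM with CX-5461 (limma adjusted p = 5.4e-07). In the CX-5461 libraries the Obox and Trim43 genes were at most 0.521 FPKM. In p53 KO ESCs with ActD 23 of 24 tested 2-cell genes rose, and with Ddx18 knockdown 2 of 5 rose in EZH2 KO and 0 of 9 in p53 KO ESCs (limma, 0 of 9 also at an unadjusted p under 0.05). With CHX 1 of 6 rose, Sp110. Of all genes 32.7% were called higher with ActD in p53 KO ESCs, 6.3% and 2.63% with knockdown in EZH2 KO and p53 KO ESCs and 33.2% with CHX. At so low a share, 0 of 9 in p53 KO knockdown does not show a lost response.

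Among the other homeobox genes Duxf3 rose with 5 and 10 ng/ml ActD (0.0447 FPKM in controls to 0.916 and 1.44 FPKM, limma adjusted p = 0.0106 and 0.00207), with ActD in p53 KO ESCs (0.600 to 2.32 FPKM, adjusted p = 0.0193) and with CHX (0.180 to 1.12 FPKM, adjusted p = 0.0179). All these control means are under 1 FPKM, so Duxf3 passed the filter through its treated libraries. That favours a rise, and the levels are near the floor. Crxos fell in ESCs with knockdown (5.77 to 1.30 FPKM, limma adjusted p = 0.000389), with both ActD doses, with ActD in p53 KO ESCs and with CHX (5.81 to 1.86 FPKM, adjusted p = 0.00361). Oocyte and maternal genes were called lower in 5 of 5 tested with knockdown, 6 of 9 with each ActD dose and 6 of 7 with CX-5461 (limma). Of all genes 42.6% were called lower with knockdown, 16.1% and 20.0% with 5 and 10 ng/ml ActD and 28.9% with CX-5461. With ActD in p53 KO ESCs 4 of 7 were called higher and 1 lower, against 32.7% and 4.33% of all genes. With CHX 3 of 9 were called higher and 2 lower, near the 33.2% and 19.8% of all genes. With knockdown in EZH2 KO and p53 KO ESCs 0 of 7 each were called (2 and 3 at an unadjusted p under 0.05), against 8.49% and 3.27% of all genes (27.4% and 31.2% at that unadjusted p). Summed epiblast and pluripotency markers were lower in every ESC comparison except Ddx18 knockdown in p53 KO ESCs, for example 2016 to 2208 FPKM in controls and 854 to 956 FPKM with CX-5461. In p53 KO ESCs their sum was 3140 to 3240 FPKM in controls and 3301 to 4448 FPKM after Ddx18 knockdown, while the Cphx copies were lower. In p53 KO ESCs, where the summed Cphx copies rose with ActD, the markers' sum went from 2415 to 2512 FPKM to 2062 to 2210 FPKM. The part of these changes in the Cphx levels was not tested.

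Across the 33 libraries of the full tables the genes with the profile most like a member's, by Pearson's r of log2(FPKM + 1) among genes that reach 5 FPKM, were family copies for Cphx1 (Cphx3, r = 0.977, and Cphx2, r = 0.968) and included the pseudogene Obox6-ps1 for Cphx1 and Cphx3 (r = 0.902 and 0.907). For Obox6 they were Trim43b (r = 0.983), I0C0044D17Rik (r = 0.980) and Obox6-ps1 (r = 0.973), and for Trim43b I0C0044D17Rik (r = 0.992), Naalad2 and Nipal1 (r = 0.984 each). Trim43a was most like Gm7792, Vnn1 and Gm3106 (r = 0.994 to 0.995) and Trim43c most like Gm12625, Slc34a2 and Gm3286 (r = 0.994 to 0.995). These values are descriptions: 4 of the 33 libraries are embryos, where these genes are high, and depth differed between libraries, up to 1.94-fold within a table. The Cphx copies may share reads, and their ratios were fixed in the EZH2 KO and p53 KO knockdown libraries. Their likeness to each other is therefore in part built in. Obox3 and Obox5 did not reach 5 FPKM.

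The RNA regions bound by DDX18 in ESCs were searched for the 8 genes. Of 880 and 939 regions in the 2 CLIP-seq libraries and 635 and 741 in the 2 TAP-seq libraries, 1 was annotated to a member, by nearest start: Trim43b, in CLIP replicate 2, at chr9:89075301-89075400 (+, mm10), which the authors' annotation calls intergenic, 17485 bases from the start, with an authors' score of 13. Trim43b was at most 0.558 FPKM in ESCs.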

How the data were processed

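RNA-seq values were FPKM deposited by the authors, made with TopHat2 2.0.11 and CASAVA per the submitters' processing notes, which name mm9 and mm10 without a role; how FPKM were computed, whether reads with several matches were kept, and any scaling between libraries are not given in the sources used here. For 19 libraries the authors also deposited the count of mapped reads. Region scores of the CLIP-seq and TAP-seq lists are the authors', on mm10 per the file headers. ChIP-seq lists were not used here.

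The row with the highest mean was taken where a symbol repeats. Each table was tested separately on log2(FPKM + 1) with limma 3.58.1 (R 4.3.3, trend, two-sided, Benjamini-Hochberg over all genes of the table that passed, threshold 0.05), after a filter of at least 1 FPKM in a number of libraries equal to the smallest group's. No replicate block was used, because same-numbered libraries did not deviate together. The test was checked on simulated data. The ESC knockdown table lists only part of the genes. Rescaled libraries were divided by their median ratio. Alternatives were a pseudocount of 0.1, no filter, rescaling, a replicate block and leaving out each library; summing the Cphx copies and comparing effects between genotypes (4 pairs) were added after seeing the data. The 8 genes and all lists were chosen with earlier results of these data known. Named genes are the 8, Ddx18, the 3 most abundant embryo genes of a list, list genes that pass in ESCs and the 3 genes most like each member. Python 3.11.15, pandas 2.3.3, numpy 2.4.6 and matplotlib 3.10.9 were used.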

Additional observations from a re-analysis of the deposited data

Results flagged for a closer look

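The response to 10 ng/ml ActD differed between ESCs and p53 KO ESCs by a test of the difference itself. It was -1.02 on the log2 scale for Cphx1 and -2.15 for the 3 summed Cphx copies (limma adjusted p = 0.0491 and 0.00937), lower in 2 of 2 treated ESC libraries and higher in 2 of 2 treated p53 KO libraries for the sum. Many other genes differed by this test as well, so the difference is not read as particular to the Cphx copies.

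Several members lay in opposite order in Ddx18 knockdown ESCs and in Ddx18 knockout embryos, every library of each moving one way. The log2 differences in knockdown ESCs were -0.80 for Obox6, -1.10 for Cphx1 and -0.90 for Cphx3, in EZH2 KO ESCs -0.53 for Cphx1 and -0.53 for Cphx3, and in p53 KO ESCs -0.90 for Cphx1 and -0.90 for Cphx3, against 3.06, 3.05 and 3.13 for Obox6, Cphx1 and Cphx3 in the embryos. The difference between embryos and ESCs was not tested, and the embryo values chose the genes.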

How the results depend on the processing

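In the embryos the median log2 difference over the 8 genes was 2.02, between 1.35 and 2.44 when 1 library was left out, with 1.35 without wild-type replicate 2; of 52 alternative values of single members 51 moved by less than 1 within-group SD of the gene, and Trim43a moved by more with rescaled libraries (1.18 against 0.80). That SD was wide for Trim43b, 1.08, whose difference was 4.23 without wild-type replicate 1 and 2.07 without replicate 2, and Trim43c was 0.63 without replicate 2 against 0.99. With CHX 1 member was called, and 0 with a pseudocount of 0.1; leaving out 1 library gave 0 to 1, and with no filter the 1 called was Obox6, not Cphx1. Knockdown ESCs called 2 members, 3 with no filter and 2 to 3 when 1 library was left out. CX-5461 called 2 throughout, and EZH2 KO, p53 KO and the ActD comparisons called 0 throughout. For the summed Cphx copies in ESCs 47 alternative values kept their side of the threshold, 20 lost the call and 1 gained it, and the cause was not tested. The number of genes called over a whole table moved by more than 1.5 times in embryos (450, with 3 at a pseudocount of 0.1, 0 with no filter, 123 rescaled and 725 with the replicate block), in EZH2 KO knockdown (999, with 56 with no filter), in p53 KO knockdown (380, with 0 at a pseudocount of 0.1, with no filter and with the block, and 167 rescaled) and in p53 KO ActD (4870, with 2271 with no filter and 3076 rescaled). Without 1 library 0 genes were called in embryos and in both knockout-line knockdowns, 0 to 5 in p53 KO ActD, 2281 to 3138 with CHX (7026 with all libraries) and 4368 to 8709 with 5 ng/ml ActD (7112 with all libraries). Rescaling moved the share of calls that were higher from 12.2% to 33.3% in embryos, 74.3% to 55.4% in EZH2 KO knockdown, 80.5% to 22.2% in p53 KO knockdown, 88.3% to 45.4% in p53 KO ActD, 67.1% to 55.8% with 5 ng/ml ActD and 62.6% to 52.6% with CHX. The replicate block left the embryo median at 2.02 and the members called at 2 (knockdown ESCs), 0 (EZH2 KO), 0 (p53 KO) and 2 (CX-5461); correlations of same-numbered deviations lay between -0.256 and 0.045. Crossing the replicate numbers in p53 KO knockdown, where that correlation was -0.256, gave 1149 called genes against 380. Columns of the ActD and CHX tables carry no replicate number, so they had no block. Levels under 1 FPKM rest on few reads and limit what these tables can show for the Obox and Trim43 genes in ESCs.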
